A study of Neurospora discreta with 48 samples.

Results

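In the filamentous ascomycete Neurospora discreta, 80 genes had an edgeR average expression well below the level that the 6 libraries of a comparison of 2 parent strains gave them. They were found among 9280 genes of 1 table made by the authors, which compares the strains after 15 min of light. For the 6148 genes with a DESeq base mean (the mean of normalized counts over both arms) of at least 100, the offset was taken as log2 of the base mean minus the edgeR average in log2 CPM. The median offset of these genes, 3.29, was subtracted, and a gene is a member where the centred offset was 0.6 or more. The members are thus chosen by 2 measured values, the base mean and the edgeR average, and make up 1.30% of the genes past the minimum. Of the 80 members, 8 differed by less than 2-fold between the arms and are called alike, and 72 differed by 2-fold or more and are called strain-different.

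The study sequenced total RNA of mycelial pads (the labels give mycelia and conidia as the source) in 48 libraries of 4 strains at 4 times with 3 replicates each. The comparison holds the African parent FGSC8831 (label high RI) and the North American parent FGSC8578 (label low RI), 3 libraries each, sampled after 15 min of light from cultures on low glucose medium at 25 °C, in cycles with a light and a dark phase of 12 h each. The other 42 libraries, of both parents at other times and of their 2 progeny N309-89 (high RI) and N309-50 (low RI), are not analysed here. The labels do not expand RI, and do not say whether replicates were separate cultures, so the authors' p-values may measure technical spread only.

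The arms are called B and A in the authors' deposited table, where no column links an arm to a strain. The order of the names in the table's title would make B the African FGSC8831 and A the North American FGSC8578. One mean per arm is listed, so no SD or value per library can be given, and depth per library is unknown. Summed over all genes of the authors' deposited table, the arm means were 10507386 normalized counts in B and 9331506 in A. No gene ID in the authors' deposited table is paired with a name or function, so members are given by scaffold and position, and the labelled tissue could not be set against markers of mycelia or conidia.

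Both quantities behind the offset are summaries of read counts scaled for library size. DESeq's base mean averages the libraries that are compared, whereas edgeR's average is taken over every library in its fit. Where both cover the same libraries, their log2 gap is close to 1 constant for well-expressed genes. If libraries outside the 6 entered the average, a gene with a clearly positive centred offset would by this arithmetic be lower in them. Which libraries entered the average, and how they were weighted, is not stated in the sources used here. For printing on 1 scale, the edgeR average was rescaled to normalized counts with the median offset and is called the rescaled average below. Fungal genes of 1 biosynthetic or nutrient pathway often lie side by side on a chromosome, and Neurospora species respond to light through the White Collar photoreceptor complex, which also drives the circadian clock gene frequency. Whether any member has such a role is not known from these files.

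Among the 80 members the centred offset had a median of 0.75 and a highest value of 0.99, and 27 members reached 0.8 and 13 reached 0.9. The SD over the 6148 genes was 0.277. These values chose the members and are a description only. If the average covered as many other libraries as the 6 compared, which is an assumption, an offset of 0.6 would put the other libraries at 32.0% of the level in the 6, and a gene silent in them would sit at 1. The members just inside the limit were on scaffold 1 (475084 to 476299, offset 0.6017), scaffold 13 (530194 to 532326, offset 0.6023) and scaffold 4 (1777200 to 1778787, offset 0.6102). Just outside it lay genes on scaffold 9 (162697 to 163460, offset 0.5956), scaffold 6 (432440 to 435860, offset 0.5917) and scaffold 2 (97690 to 102288, offset 0.5911). There is no gap in the values at the limit, so the number of members depends on it.

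**Figure D1:**
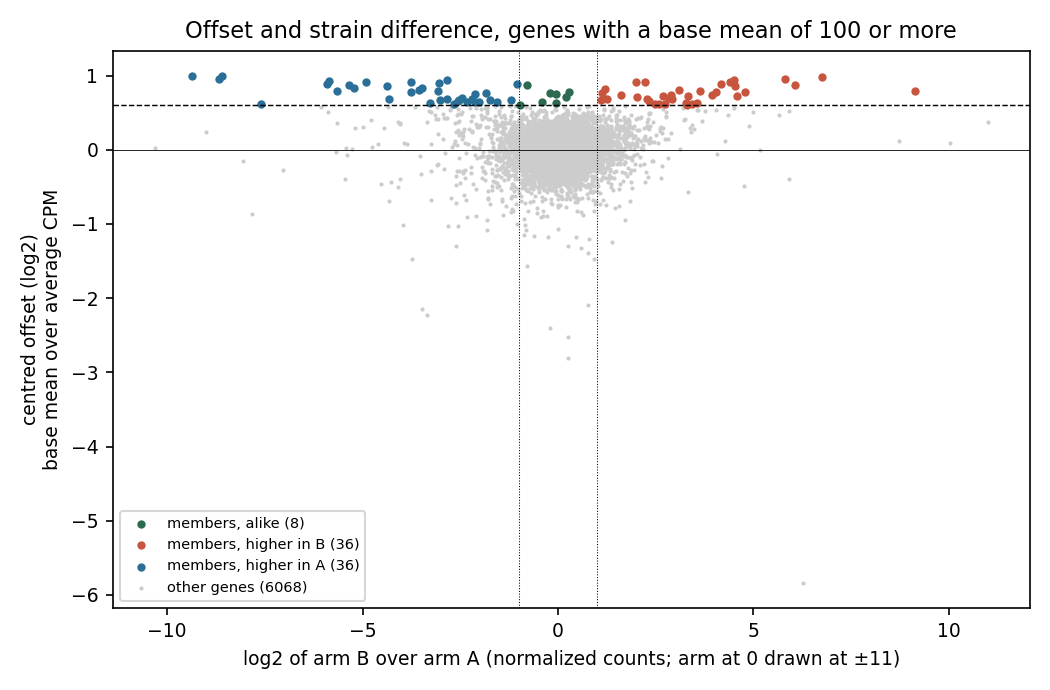
Each point is 1 of the 6148 genes with a base mean of 100 or more; the x axis is log2 of arm B over arm A, the y axis the centred offset in log2, the dashed line the limit of 0.6 and the dotted lines the 2-fold limits. The 80 members form a band between 0.60 and 0.99, of which 8 lie between the dotted lines and 36 on either side.

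The alike members are the 8 in which the arm means lay less than 2-fold apart. The most abundant of them, on scaffold 9 (495532 to 496615), had 47262 normalized counts in B and 82326 in A in the authors' deposited table. Its rescaled average was 35229, below both arms, and its centred offset was 0.88. This gene is 1 of 119 with a base mean of at least 10000, of which 4 are members. Its strain difference was not called (DESeq adjusted p = 0.4674 and edgeR adjusted p = 0.244 in the authors' deposited table).

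A further 4 alike members lie on the same scaffold close by. The gene at 470049 to 471676 had 3222 normalized counts in B and 2809 in A in the authors' deposited table, with a rescaled average of 1839. The gene at 471970 to 474174 stood at 1126 in B and 1286 in A in the authors' deposited table, with a rescaled average of 711. For both, the 2 arms lay close together and the average sat clearly under them. The gene at 475330 to 476317 had 826 in B and 861 in A in the authors' deposited table, and a rescaled average of 500.2. The gene at 476675 to 477886 had 1096 in B and 903 in A in the authors' deposited table, against a rescaled average of 584. In these 4 genes the average came to between 58.4% and 61.0% of the base mean.

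The remaining 3 alike members lie alone. The one on scaffold 3 (326238 to 327525) had 387 normalized counts in B and 513 in A in the authors' deposited table, with an offset of 0.64. A gene of 4945 bp on scaffold 1 (1957929 to 1962873) had 639 in B and 661 in A in the authors' deposited table, with an offset of 0.63. On scaffold 13 (530194 to 532326) the levels in the authors' deposited table were 3257 in B and 6340 in A, the largest difference of the 8, and the rescaled average of 3161 was just below B. None of the 8 was called by DESeq or edgeR at an adjusted p under 0.05, which does not show that the strains express them alike. All 8 had a rescaled average below both arm means. The rule fixes this outcome: with arms less than 2-fold apart, an offset of 0.6 or more puts the average below both. Alike members were 0.159% of the 5044 genes past the minimum with a strain difference under 2-fold.

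**Figure D2:**
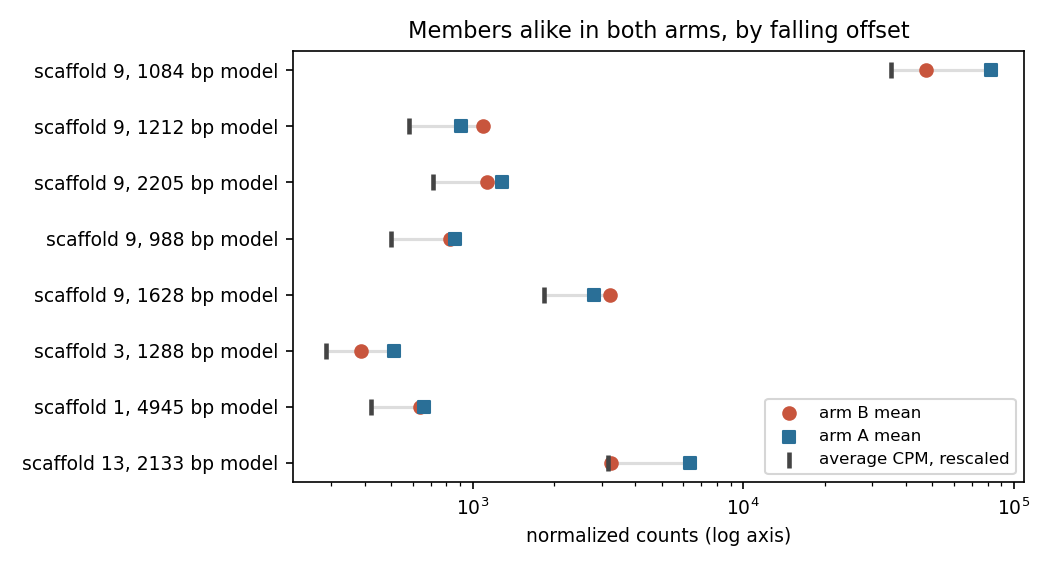
The 8 members alike in both arms, 1 row per gene model in falling order of offset; the x axis is normalized counts on a log scale, circles are the arm B mean, squares the arm A mean and bars the rescaled edgeR average. In every row the average lies left of both arms, as the rule requires of alike members. It runs from 35229 against 47262 and 82326 in the top row to 3161 against 3257 and 6340 in the bottom row.

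The 5 alike members of scaffold 9 belong to 1 stretch of neighbouring members. Between 470049 and 496615, 8 of 11 consecutive gene models over 26.6 kb were members, and the first 6 of them (470049 to 486272, 16.2 kb) formed the longest unbroken run of members in the table. The stretch was drawn to begin and end on members, so its share of members is a description only. The other 3 members of the stretch were strain-different. The gene at 474147 to 475121 had 279 normalized counts in B and 2285 in A in the authors' deposited table, and its 5′ end overlaps that of the gene before it, on the opposite strand, by 28 bp. No source used here says whether counting used the strand, so reads in that overlap cannot be assigned. The 6691 bp model at 479582 to 486272 had 1531 in B and 3163 in A, and that at 486978 to 488418 had 4005 in B and 1885 in A, in the authors' deposited table. Both differed little more than 2-fold and were called by edgeR (adjusted p = 0.0058 and 0.0062) and not by DESeq (0.0599 and 0.0504) in the authors' deposited table.

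Within the stretch the strain difference of the members had no common direction. Their offsets, which the rule holds at 0.6 or more, ran from 0.67 to 0.90, and log2 of B over A, from the arm means in the authors' deposited table, was between -3.03 and 1.09. In 7 of the 8, the rescaled average was below both arms, and the exception was the overlapping gene at 474147. For the 5 alike members the rule sets this position. Summed over the 8, the arm means in the authors' deposited table were 59347 in B and 95519 in A, most of it from the single gene at 495532. Of the 8 models 5 lie on the minus strand and 3 on the plus strand.

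Of the 3 models in the stretch that are not members, 2 were barely expressed. The model at 486522 to 486791 had 3.16 normalized counts in B and 2.19 in A, and that at 488807 to 489664 had 15.8 in B and 14.4 in A, in the authors' deposited table. Their offsets were -0.58 and -0.04. By contrast, the model at 492131 to 494203 had 1059 in B and 815 in A in the authors' deposited table, and at 0.49 its offset missed the limit. The genes just before the stretch had offsets of the same size and too low a base mean to be members. At 464816 to 465399 the authors' deposited table lists 0.750 in B and 107.7 in A, with an offset of 0.88. At 467167 to 467987 it was 8.0 in B and 81.8 in A in the authors' deposited table, with an offset of 0.76. Counted with these, 10 of 13 consecutive models had an offset of at least 0.6, in a window widened only on the side before the stretch. After the stretch the offsets of the next 3 genes were -0.06, 0.35 and -0.40, so the group ended at the abundant gene.

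**Figure D3:**
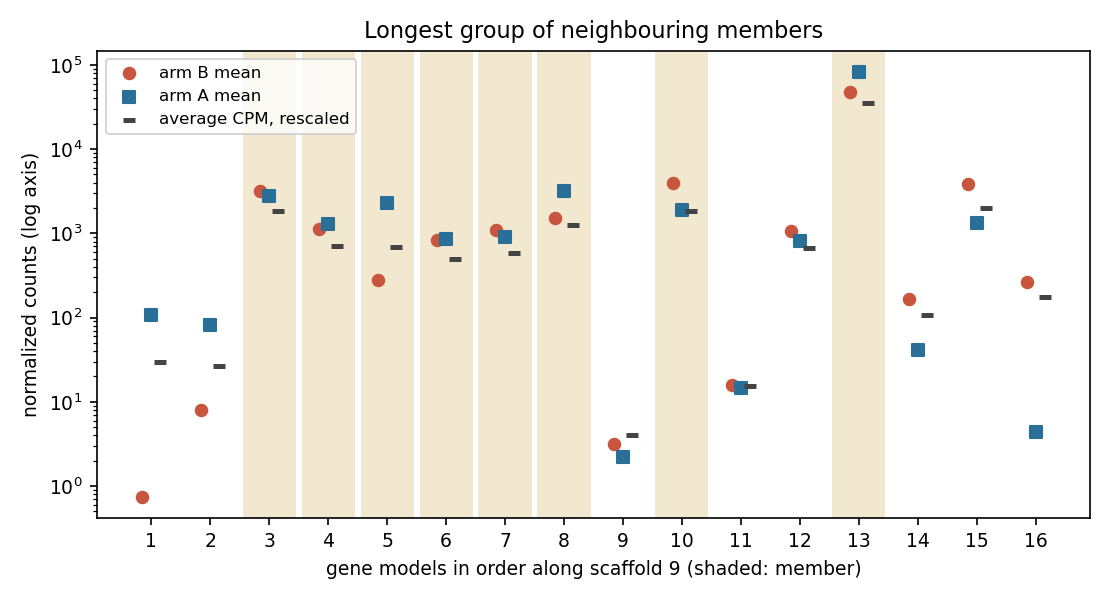
Consecutive gene models along scaffold 9, from 2 models before the stretch (numbers 1 and 2) to 3 after it (14 to 16), with the 8 members shaded; the y axis is normalized counts on a log scale, circles are the arm B mean, squares the arm A mean and dashes the rescaled edgeR average. In 7 of the 8 shaded models the dash lies below both arms, which the rule sets for the 5 alike members. The dash lies between the arms in number 5, the model at 474147 to 475121, with 279 in B and 2285 in A.

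Apart from the stretch, members mostly lay singly. In all, 12 of the 80 members had a member as a direct neighbour, made of the run of 6 and 3 pairs. The number was 6 without the stretch, and 21 where genes under the minimum base mean were left out before neighbours were taken. The pair on scaffold 3 (1290158 to 1292835, 493 bp apart) was higher in A in both genes, with 115 normalized counts in B and 3450 in A for the first and 221 in B and 1570 in A for the second in the authors' deposited table. The pair on scaffold 15 (53834 to 57496, 895 bp apart) was also higher in A in both. Its second gene is the abundant one at 56761 to 57496, with 5185 in B and 70447 in A in the authors' deposited table, an offset of 0.92 and a rescaled average of 20002. The pair on scaffold 12 (90210 to 91761, 102 bp apart) was higher in B in both genes. Its first gene had 1494 in B and 376 in A, and its second 430 in B and 91.9 in A, in the authors' deposited table, with offsets of 0.91 for each. In each of the 3 pairs the 2 genes thus shared the direction of the strain difference.

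Strain-different members were 72 of 80, while 18.0% of all genes past the minimum were at least 2-fold apart. In the authors' deposited table, DESeq called 69 of the 80 at an adjusted p under 0.05, where 15.0% of all 9280 genes and 14.8% of those past the minimum were called. The base mean of the same contrast chose the members, so nothing is read from this. By its false discovery rate in the authors' deposited table, edgeR also called 69, against 21.4% of all genes, and 67 were called by both. Beyond 1 in absolute log2 of B over A, the share of members was higher in each larger class of strain difference, while the classes below 1 both held under 0.2%. The arm means behind these classes also make up the base mean that the rule uses. Members were 6 of 3438 genes under 0.5 in absolute log2 (0.174%), 2 of 1606 from 0.5 to 1 (0.124%), 11 of 827 from 1 to 2 (1.33%), 22 of 159 from 2 to 3 (13.8%, exact binomial 95% interval 8.88 to 20.2), 26 of 83 from 3 to 5 (31.3%, 21.6 to 42.4) and 13 of 34 at 5 or more (38.2%, 22.2 to 56.4). The intervals cover counting error only and take genes as independent, although some members lie side by side. Since the rule uses the same arm means, the intervals test nothing. Of the 34 genes with the largest strain differences, 21 were not members.

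**Figure D4:**
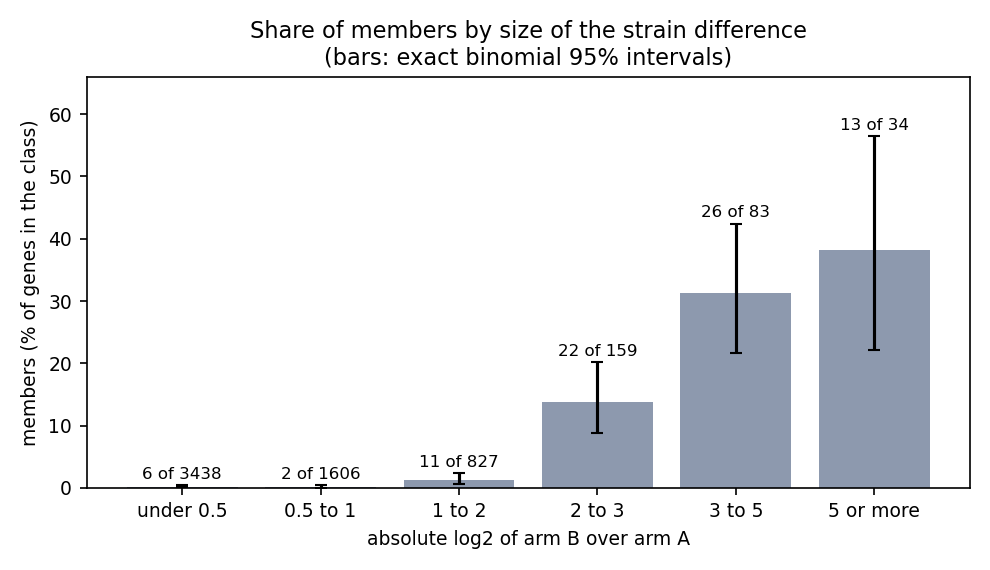
Share of members, in percent, among genes with a base mean of 100 or more, in classes of the absolute log2 of arm B over arm A; error bars are exact binomial 95% intervals and the numbers above them are members of genes in the class. The share was 0.174% in the first class and 38.2% in the last. The intervals take genes as independent, and the arm means behind the classes also enter the rule, so they test nothing.

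By direction, 36 strain-different members favoured B and 36 favoured A, whereas with both arms set to the same total the rule found 26 favouring B and 55 favouring A. That scaling moves every log2 of B over A by 0.17. As deposited, 592 of the 1104 genes past the minimum and at least 2-fold apart were higher in B (53.6%). The same background is not given with equal arm totals, so the 26 and 55 have nothing to be set against. Members higher in B had a median of 1311 normalized counts in B and 142 in A in the authors' deposited table. Members higher in A had a median of 107 in B and 1203 in A in the authors' deposited table.

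Among members higher in B, the highest offset was that of estExt_Genewise1.C_40395 on scaffold 4 (792518 to 793694), with 25494 normalized counts in B and 236 in A in the authors' deposited table. Its offset of 0.99 put its rescaled average at 6496. Next came estExt_fgenesh3_pm.C_60269 on scaffold 6 (1212681 to 1213936), with 570 in B and 10.1 in A in the authors' deposited table and an offset of 0.96. Both were called by both tools, with edgeR adjusted p of 9.54e-44 and 3.85e-15 computed from the likelihood ratios in the authors' deposited table. A gene on scaffold 3 (347226 to 348352) had 357 in B and 15.8 in A in the authors' deposited table, with an offset of 0.94. On scaffold 4 (2381859 to 2383418) the values in the authors' deposited table were 2835 in B and 135 in A, and the offset was 0.92. On scaffold 13 (626212 to 627500) they were 1104 in B and 16.7 in A in the authors' deposited table, with an offset of 0.87. A 264 bp model on scaffold 9 (1258136 to 1258399) stood at 234 in B and 13.1 in A in the authors' deposited table, with an offset of 0.88. The A means of these genes ran from 10.1 to 236 normalized counts. With the pair on scaffold 12 they are the 8 members higher in B with the highest offsets.

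Among members higher in A, e_gw1.6.909.1 on scaffold 6 (8027 to 9405) had the highest offset of all, 0.99, with 1.55 normalized counts in B and 1010 in A in the authors' deposited table. On the same scaffold, the 6692 bp model estExt_fgenesh3_pm.C_60067 (301375 to 308066) had 1.43 in B and 549 in A in the authors' deposited table, also with an offset of 0.99. The smallest B mean above 0 in the authors' deposited table was 0.291, so both B values rest on a few counts. A gene on scaffold 9 (532215 to 533948) had 3.26 in B and 1326 in A in the authors' deposited table, with an offset of 0.95. The 487 bp model on scaffold 9 (110515 to 111001) had 31.1 in B and 1803 in A in the authors' deposited table, with an offset of 0.93. For these 4 genes the rescaled average was between 50.2% and 52.4% of the base mean. The other genes with the 8 highest offsets in this direction are the pair on scaffold 3, the abundant gene of the pair on scaffold 15 and the overlapping gene at 474147 on scaffold 9.

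How often genes past the minimum were near silent in the low arm was not counted, so the counts for members have no background here. The lower arm mean was under 10 normalized counts in 5 of the 80 members, by the authors' deposited table. It was under 50 in 21 of them and at least 100 in 47. In 4 strain-different members the rescaled average lay below both arms, among them an abundant gene on scaffold 12 (12460 to 13118) with 46507 in B and 21400 in A in the authors' deposited table and a rescaled average of 20042. Its strain difference was not called (DESeq adjusted p = 0.1698 and edgeR adjusted p = 0.1851 in the authors' deposited table). The others were both genes of the scaffold 9 stretch that differed little more than 2-fold and a gene on scaffold 13 (457782 to 458653), with 802 in B and 348 in A in the authors' deposited table and a rescaled average of 326. The last was called by DESeq (adjusted p = 0.0492) and not by edgeR (adjusted p = 0.5289) in the authors' deposited table. With the 8 alike members, where the rule sets it, 12 of 80 had an average below both arms. Only the 4 strain-different members were not placed there by the rule alone. The count of members below both arms was 10 to 12 with other centres or equal arm totals. Under the assumption that the average covers an equal number of other libraries, those would lie below both arms in 47 members. With these alternatives that number was 46 to 53. Much of it is set by the rule, since an offset of 0.6 then puts the other libraries at 32.0% of the base mean. That alone places all 19 members under 4-fold apart, the alike members included, below both arms, and some members with larger differences too. Nothing is read from this number.

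Members were spread unevenly over the scaffolds. Scaffold 9 held 17 members, 21.2% of all, on 277 genes past the minimum, which is 4.51% of such genes. Without the stretch, 9 of the other 268 genes on scaffold 9 were members (3.36%), against 1.17% of all genes outside the stretch. Of these 9, 8 were higher in A, and 5 of the 8 lay between 106256 and 241599. Scaffold 3 held 13 members, scaffold 4 held 10 and scaffold 1 held 7. No member was found on scaffold 7, with 437 genes past the minimum, or scaffold 10, with 232, nor on 4 other scaffolds with at least 40 such genes, among them scaffold 18. Scaffold 13 held 5 members of 131 genes and scaffold 11 held 1 of 213.

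The direction of the strain difference among the strain-different members was not the same on every scaffold. On scaffold 4, all 10 members were higher in B, while the genes past the minimum and at least 2-fold apart there comprised 63 with B above A and 44 with A above B. On scaffold 8, all 6 members were higher in A, while such genes comprised 27 with B above A and 32 with A above B. On scaffold 9, 2 strain-different members had B above A and 10 had A above B, and on scaffold 3 these numbers were 9 and 3. With equal arm totals the counts, B above A first, became 7 and 0 on scaffold 4, 0 and 8 on scaffold 8, 1 and 13 on scaffold 9, and 8 and 3 on scaffold 3. The difference between scaffolds was not tested, and members on a scaffold are not independent.

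In expression level members lay somewhat above the other genes. Their median base mean was 697 normalized counts, against 459 for all genes past the minimum, by the authors' deposited table. Members were 0.803% of genes with a base mean from 100 to under 200, 1.13% from 200 to under 700, 1.69% from 700 to under 10000 and 3.36% (4 of 119) at 10000 or more. The base mean is part of the rule.

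The gene models of members were shorter, by median, than those of the non-member sets given here. Their median length from start to end was 1405 bp, with quartiles of 1023 and 1922 bp. The median was 1834 bp for the 1032 strain-different genes that are not members, 2045 bp for the 5036 alike genes that are not members and 2165 bp for the 111 genes with a centred offset of -0.6 or less. Leaving out the stretch on scaffold 9 left the members' median at 1405 bp. The 8 alike members had a median of 1458 bp. Length was not compared at a like size of strain difference, so shortness cannot be called particular to members. Members under 600 bp numbered 5 (6.25%), against 2.98% of all genes past the minimum, and 2 members were 5000 bp or longer.

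**Figure D5:**
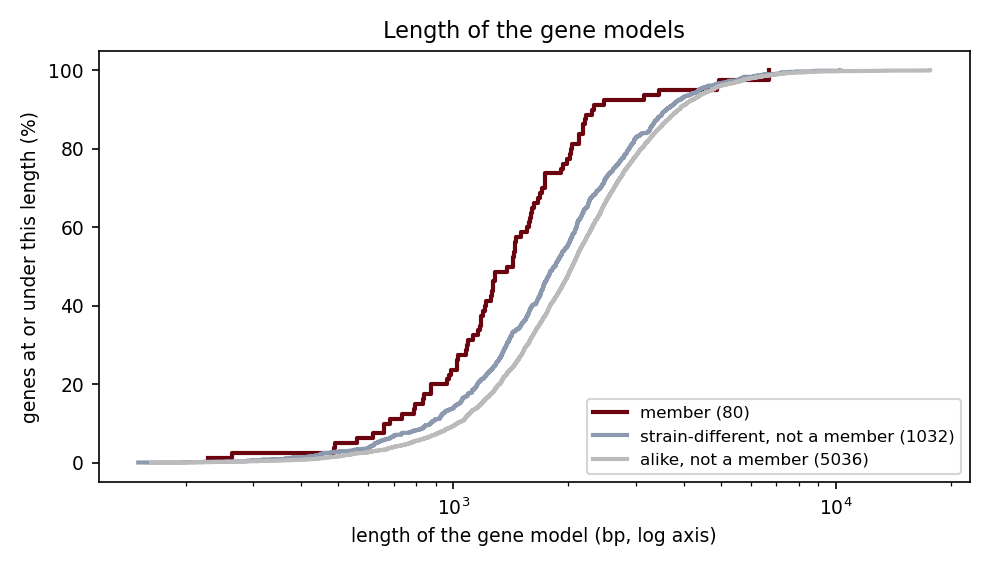
Cumulative share of genes, in percent, at or under each length of the gene model in bp (log axis), for the 80 members, the 1032 strain-different and the 5036 alike genes that are not members, all with a base mean of 100 or more. The curve of the members lies left of the others over most of its range, with medians of 1405, 1834 and 2045 bp.

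Other features of the models were counted as well. Models that carry the name of the SNAP predictor were 6 of the 80 members (7.50%) and 3.76% of all genes past the minimum. All 8 alike members were FGENESH models, a class that made up 51.4% of all genes past the minimum. Of these 8, 5 come from the single stretch on scaffold 9. Members within 20 kb of the first base of a scaffold, or of the end of its last model, numbered 5 (6.25%), against 4.26% of all. Of the 80 members, 8 were part of a head-to-head pair of genes under 1000 bp apart, and 5 of 72 (6.94%) without the scaffold 9 stretch. The share was 22.5% of all genes past the minimum, 11.9% of strain-different genes that are not members and 24.8% of alike genes that are not. Another model overlapped 3 members.

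The mirror set, 111 genes with a centred offset of -0.6 or less, was made up differently. Of these, 69 (62.2%) were alike in both arms, while 8 of the 80 members and 5044 of the 6148 genes past the minimum were. DESeq called 35 of the 111 (31.5%) in the authors' deposited table, against 14.8% of all genes past the minimum. In the mirror set, strain-different genes were more frequent than among all genes past the minimum, where 18.0% were at least 2-fold apart. The arm means that give the strain difference also make up the base mean, which enters both rules. No test was made of this contrast, and nothing is read from it.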

How the data were processed

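The submitters' processing notes name FastQC 0.11.4, cutadapt 1.3, TopHat2 2.1.1, HTSeq, SAMtools, and the authors' test tools edgeR and DESeq, with no roles. Build, annotation and strand setting: not given in the sources used here. Coordinates are those of the authors' deposited table. Per the file headers, DESeq gave the base mean and arm means (a normalized signal, which is counts divided by size factors), the fold ratio B over A and p-values. Per the file headers, edgeR gave log2 fold changes, the average in log2 CPM, the likelihood ratio as a score, and p-values with their false discovery rate. Deposited p-values stop at 4 decimals; those printed as computed come from the likelihood ratios with 1 degree of freedom, adjusted over all 9280 genes by the Benjamini-Hochberg method.

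The design foresaw edgeR on counts, or the authors' own statistics where only these were given; the second case applied, and no model was fitted here. In the authors' edgeR output the average weights libraries by a count model, so it is close to a plain mean and not equal to it. Log2 fold changes were computed as B over A from the arm means. The members, limits and descriptions were chosen with earlier results of these data known, so they carry no test. Named genes are the 8 members with the highest offset in each class, the 5 most abundant alike members, 3 genes on each side of the limit and the longest run; others were singled out after their values were seen. IDs are printed for 2 genes per direction. A list of 12 clock, light and conidiation genes matched 0 IDs. Python 3.11.15, numpy 2.4.6, pandas 2.3.3, scipy 1.17.1 and matplotlib 3.10.9 were used.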

Additional observations from a re-analysis of the deposited data

How the results depend on the processing

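No paired analysis was possible because only arm means were deposited, with no value per replicate; leaving out replicates and other normalizations could not be run either. Of 88 values under alternatives, 60 stayed within 1.5 times the reported count or within the interval of the reported share. The counts of members moved because the limit or the minimum did. With a limit of 0.5 there were 146 members, 29 alike, 117 strain-different, 111 called and 25 with a neighbouring member. With 0.7 there were 48 members, 5 alike, 43 strain-different and 41 called, and with 0.8 there were 27, 1, 26 and 25, with 4 next to another member. A minimum base mean of 500 left 44 members, 5 alike, 39 strain-different and 36 called. With no minimum there were 138 members, 20 alike, 118 strain-different, 113 called and 35 with a neighbouring member. With 4-fold as the limit for alike, 19 members were alike. With equal arm totals 32.1% of strain-different members were higher in B, against 50.0% as deposited; 72 members were shared by both scalings. Without the scaffold 9 stretch, an alternative chosen after seeing the data, 3 members were alike and 6 had a neighbouring member. Among genes past the minimum alone, 21 members neighboured another. The 8 members of the stretch were members with equal arm totals too, 6 of them alike. With centring within tiers of base mean, 74 of the 80 were kept. Library depth is unknown, so no limit from it can be given.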

Other observations

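Genes just under the minimum level held the same kind of offset. Of 887 genes with a base mean from 50 to under 100, 17 (1.92%) had a centred offset of 0.6 or more, 4 higher in B, 9 higher in A and 4 alike. No test was made, since these genes were chosen by their values.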
